A study of Saccharomyces cerevisiae with 6 samples.

Results

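The genes described here encode the mitochondrial pyruvate carrier (*MPC1*, *MPC2*, *MPC3*) and the subunits of the pyruvate dehydrogenase complex (*PDA1*, *PDB1*, *LAT1*, *LPD1*, *PDX1*), 8 genes of the 5449 budding yeast genes that the arrays tested. They were taken by name from the annotation of the array, and each had 1 probe set (a group of short probes against 1 transcript). Pyruvate is made by glycolysis in the cytosol and enters the mitochondrion through the carrier, in which Mpc1 pairs with either of 2 related partners, Mpc2, known as the partner in fermenting cells, or Mpc3, known as the partner in respiring cells. Inside, pyruvate dehydrogenase converts it to acetyl-CoA for the tricarboxylic acid cycle. In cells that ferment glucose most pyruvate goes instead to ethanol, by way of pyruvate decarboxylase in the cytosol.

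Expression was measured on Affymetrix Yeast Genome 2.0 arrays in 3 cultures of a strain whose only H2B has lysine 37 replaced by alanine (H2B K37A, strain YKG007) and 3 cultures of a strain with wild-type H2B (YKG001), and the study asked whether loss of this methylated lysine alters transcription. All cultures were grown at the same time in YPD, a rich glucose medium, to mid-exponential phase at an OD600 of 1.0. Both strains are MATa and carry (hta1-htb1)D::LEU2 and (hta2-htb2)D::TRP1, so both lack every chromosomal H2A and H2B gene, along with the marker alleles leu2D1 and ura3-52, lys2D1 and lys2-128d, and his3D200 and trp1D63. Histones H2A and Flag-tagged H2B came from a HIS3 plasmid, pKG2 with htb1 (K37A) in the mutant and pZS145 with HTB1 in its wild-type counterpart, and the labels name 1 strain for each genotype. The arrays measure transcript abundance and do not check the mutated codon. Values are log2 signals, so a difference of 1 is a 2-fold change, and each is given for K37A minus wild type. Because RNA came from whole cultures, fewer cells with a transcript and less of it per cell cannot be told apart.

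All 8 transcripts were detected. The lowest signal of any of these genes on any array was 8.95 on the log2 scale, against 4.11 to 6.38 for the probe sets of 4 Schizosaccharomyces pombe genes that bear the names pda1, pdb1, lat1 and pdx1, whose transcripts budding yeast does not make. On the 6 arrays, the median signal of the 5498 budding yeast probe sets was 11.05 to 11.10.

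The largest contrast lay within the carrier, although no gene of the carrier passed the test. *MPC3* had the second most negative difference of all 5498 probe sets, *MPC1* differed by less and *MPC2* hardly at all. Of the pyruvate dehydrogenase genes, *PDX1* was the one that passed the test, while *PDA1*, *PDB1* and *LAT1* had ratios of K37A to wild type of 0.978 to 0.994. In all, 1 of the 8 genes was lower in H2B K37A cells at an adjusted p under 0.05 (limma, Benjamini-Hochberg adjustment over all probe sets tested), none was higher, and 4 had an unadjusted p under 0.05, as did 35% of all probe sets. Of all probe sets 8.08% were lower, 6.44% higher and 14.5% called in either direction, so 1 of 8, or 12.5%, is near the background. The call of *PDX1* was lost without K37A replicate 2 or 3 and without any 1 of the wild-type replicates, which left 0 of the 8 called. Without K37A replicate 1 there were 3 (*MPC1*, *MPC3* and *PDX1*). Over all probe sets 444 were lower with every array kept, and 615, 4 and 262 without K37A replicates 1, 2 and 3. Without wild-type replicates 1, 2 and 3 the lower probe sets were 26, 2 and 95. The adjusted p of *PDX1* from limma was 0.0494 to 0.134 over these settings.

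The K37A arrays all lay below the wild-type arrays for 5 of the 8 genes, *MPC1*, *MPC3*, *LAT1*, *LPD1* and *PDX1*, and none had them all above. The same order was found for 21.5% of all probe sets, the opposite order for 20.6%, and no overlap in either direction for 42.1%. The median difference of the 8 genes was -0.07, beside 0.00 for all probe sets tested. All 8 differences were negative, as were 2709 of the 5498 over all probe sets. Those of *MPC2*, *PDA1*, *PDB1* and *LAT1* were only -0.03 to -0.01, with a standard error of 0.03 each, so their sign says little. The differences of *MPC2* and *PDB1* turned positive with median centring. That of *MPC2* also did so without K37A replicate 2 or 3 or wild-type replicate 3.

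**Figure D1:**
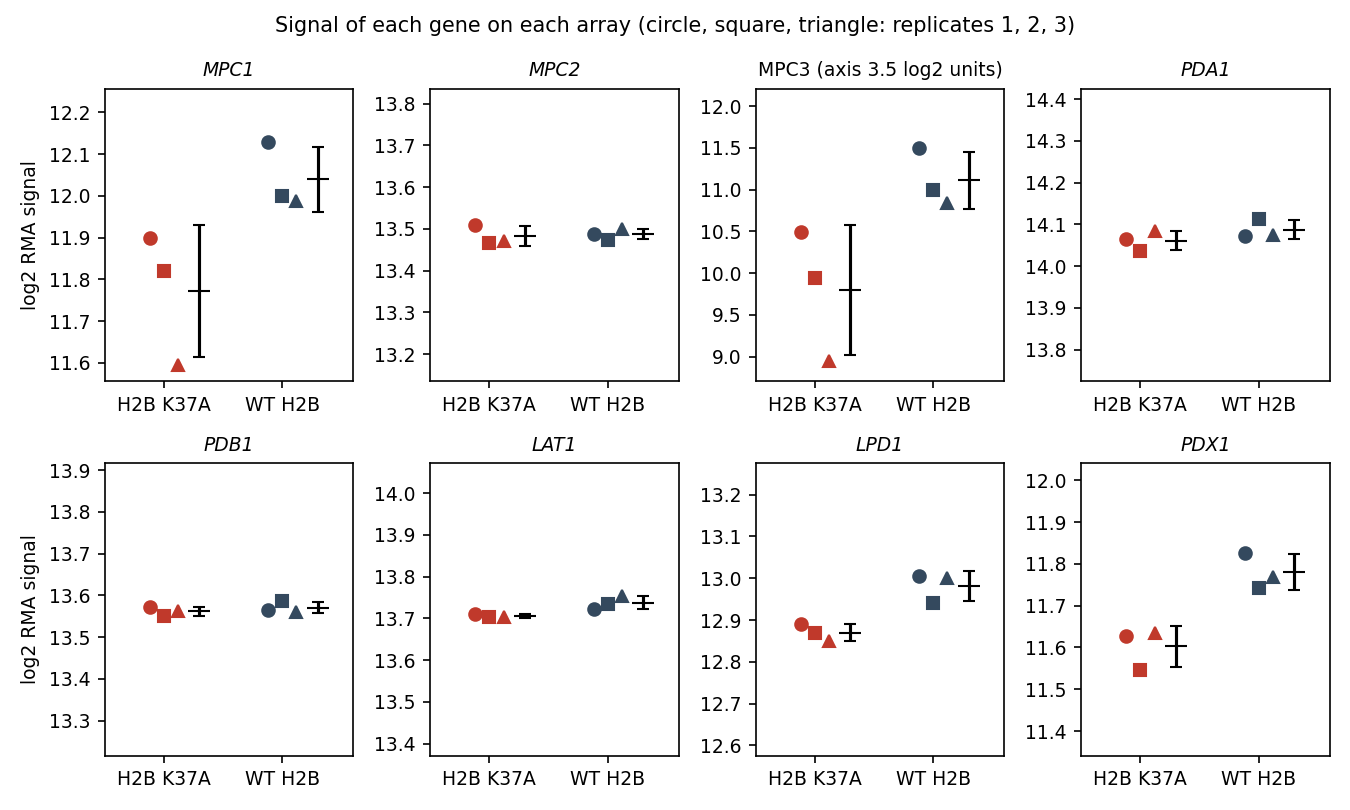
Log2 RMA signal (vertical axis) of the 8 genes on each array, with H2B K37A left and wild-type H2B right in each panel. Points are single arrays and bars are means ± SD (n = 3 each). All panels have the same span except that of *MPC3*, which is wider. The K37A points of *MPC3*, 8.95 to 10.50, all sit below the wild-type points, 10.84 to 11.49, and those of *MPC2* overlap.

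*MPC3* (YGR243W, named FMP43 in older annotation) encodes the subunit used in respiring cells. The study had picked it from these same arrays by its fold change, so its direction here is not independent evidence. The paper also reports lower expression of this gene in the mutant by RT-qPCR, relative to *ACT1*. Its log2 signal was 10.50, 9.95 and 8.95 on K37A arrays 1, 2 and 3, against 11.49, 10.99 and 10.84 on wild-type arrays 1, 2 and 3. All mutant cultures were below all wild-type cultures, and K37A replicate 3 stood well below the other mutant cultures. The means were 9.80 ± 0.78 in H2B K37A cells and 11.11 ± 0.34 in wild-type cells (SD, n = 3 each). The difference was -1.31 (standard error 0.39), a ratio of 0.403 with a 95% confidence interval of 0.212 to 0.767, and it did not pass the test (adjusted p = 0.0643, limma). Between the mutant cultures alone the signal ranged 2.91-fold and between the wild-type cultures 1.57-fold, and the spread within strains was the third largest of all probe sets. Without K37A replicate 1 the difference was -1.66 and passed (adjusted p = 0.0239, limma), and without K37A replicate 3 it was -0.89 and did not (adjusted p = 0.0675, limma).

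*MPC1* (YGL080W) encodes the subunit found in either form of the carrier. Its signal was 11.90, 11.82 and 11.60 on K37A arrays 1, 2 and 3, against 12.13, 12.00 and 11.99 on wild-type arrays 1, 2 and 3, again with no overlap. The difference was -0.27 (standard error 0.09), a ratio of 0.831 with a 95% confidence interval of 0.721 to 0.957, and it did not pass (adjusted p = 0.0771, limma). Ranked from low to high, the 6 arrays fell in the same order for *MPC1* as for *MPC3*. Over the 6 arrays, which include both strains, the profile of *MPC1* had the second highest Pearson correlation with that of *MPC3* among all probe sets (r = 0.997), although its differences were smaller. The others of the 5 closest to *MPC3* were *GPD1*, a glycerol-3-phosphate dehydrogenase (r = 0.999), *MIG1*, a repressor active in glucose (r = 0.997), *MEF2*, a mitochondrial elongation factor (r = 0.997), and *MHO1* (r = 0.997). With so few arrays and a difference between strains in common, such values are a description.

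*MPC2* (YHR162W) encodes the subunit used in fermenting cells. It had 13.51, 13.47 and 13.47 on K37A arrays 1, 2 and 3, against 13.49, 13.47 and 13.50 on wild-type arrays 1, 2 and 3. The groups overlapped, and the difference was -0.01 (standard error 0.03, adjusted p = 0.936, limma). The 95% confidence interval of the ratio was 0.943 to 1.05.

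Set against *MPC2* on the same array, the *MPC3* signal was -3.01, -3.52 and -4.52 log2 units on K37A arrays 1, 2 and 3 and -2.00, -2.48 and -2.66 on wild-type arrays 1, 2 and 3. The K37A arrays were all lower. The strains differed by -1.30 (SD 0.76 between mutant and 0.34 between wild-type cultures, n = 3 each), a ratio of 0.405 in the balance of the paralogs, with p = 0.1 by an exact two-sided permutation test, the smallest p that 3 arrays against 3 allow. Probe sets differ in brightness, so the size of each within-array value carries no meaning, only its change between strains. As *MPC2* hardly differed, that change largely repeats the difference of *MPC3* (-1.31), which the study had picked from these arrays.

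**Figure D2:**
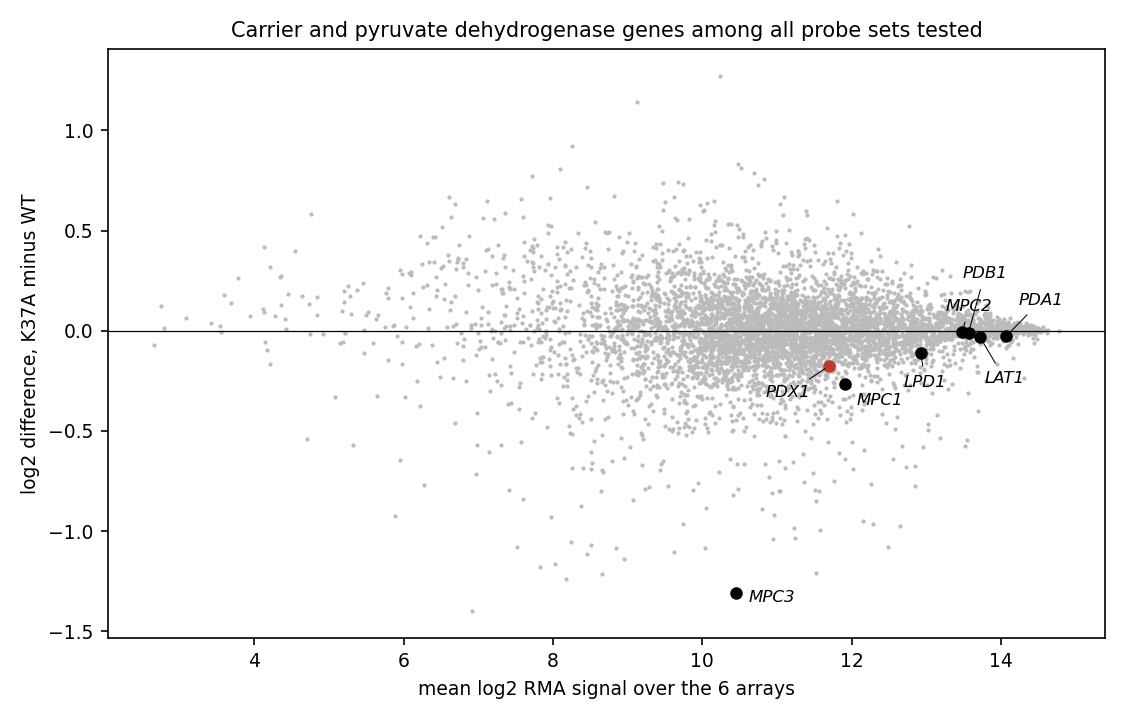
Log2 difference, K37A minus wild type (vertical axis), against the mean log2 RMA signal over the 6 arrays (horizontal axis) for the 5498 budding yeast probe sets (grey). The 8 genes are marked, with *PDX1*, which passed the test, in red. *MPC3* lies at the lower edge at -1.31, and the brightest genes lie near 0 where the grey points also draw together.

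Pyruvate dehydrogenase is built on a core of Lat1, the acetyltransferase that carries lipoic acid. Pda1 and Pdb1, the alpha and beta subunits of the decarboxylating enzyme, bind to it, and Pdx1 anchors the dihydrolipoamide dehydrogenase Lpd1 to that core. *PDA1* (YER178W) had 14.06, 14.04 and 14.08 on K37A arrays and 14.07, 14.11 and 14.07 on wild-type arrays. The groups overlapped, with a difference of -0.03 (standard error 0.03, adjusted p = 0.633, limma) and a 95% confidence interval of the ratio of 0.928 to 1.04. *PDB1* (YBR221C) had 13.57, 13.55 and 13.56 on K37A arrays and 13.56, 13.59 and 13.56 on wild-type arrays, a difference of -0.01 with an interval of the ratio of 0.943 to 1.05 (adjusted p = 0.878, limma). *LAT1* (YNL071W) had 13.71, 13.70 and 13.70 on K37A arrays and 13.72, 13.74 and 13.75 on wild-type arrays. Its groups did not overlap, but the difference was -0.03, with an interval of the ratio of 0.928 to 1.03 (adjusted p = 0.510, limma).

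*PDX1* (YGR193C) had a log2 signal of 11.63, 11.55 and 11.63 on K37A arrays 1, 2 and 3, against 11.83, 11.74 and 11.77 on wild-type arrays 1, 2 and 3. No mutant culture reached the lowest wild-type culture. It fell to a ratio of 0.884, with a difference of -0.18 (standard error 0.04), a 95% confidence interval of the ratio of 0.824 to 0.949 and adjusted p = 0.0426 from limma. *LPD1* (YFL018C), whose product also serves 2-oxoglutarate dehydrogenase and glycine decarboxylase, had 12.89, 12.87 and 12.85 on K37A arrays 1, 2 and 3 and 13.00, 12.94 and 13.00 on wild-type arrays 1, 2 and 3. The groups did not overlap, and the difference of -0.11 (standard error 0.04), a ratio of 0.925, did not pass (adjusted p = 0.0775, limma). *PDX1* and *LPD1* had a Pearson correlation of 0.915 over the 6 arrays, which ranked *PDX1* at place 308 among the profiles closest to *LPD1*. The 5 closest were *ATG9*, *GVP36*, *MDL2*, *TWF1* and *HBS1* (r = 0.999, 0.995, 0.994, 0.994 and 0.989), with *ATG9* known as a membrane protein of autophagy.

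Relative to the core gene *LAT1* on the same array, the *PDX1* signal was -2.08, -2.16 and -2.07 log2 units on K37A arrays and -1.90, -1.99 and -1.99 on wild-type arrays. All K37A arrays were lower. The strains differed by -0.14 (SD 0.05 in each strain, n = 3 each), for a pair chosen after the values had been seen. An exact two-sided permutation test gave p = 0.1, the smallest possible here. As *LAT1* differed by only -0.03, that change largely repeats the difference of *PDX1* (-0.18), whose groups did not overlap. The p-value is therefore not separate evidence.

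**Figure D3:**
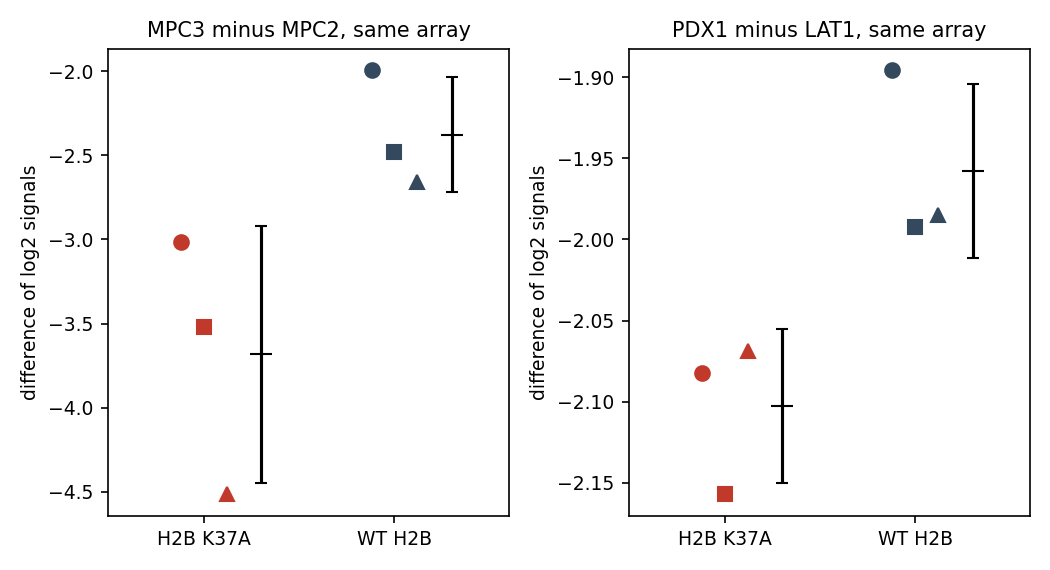
Difference of log2 signals on the same array (vertical axes) for *MPC3* minus *MPC2* (left panel) and *PDX1* minus *LAT1* (right panel), with H2B K37A left of wild-type H2B. Points are arrays and bars are means ± SD (n = 3 each). The K37A arrays lie below the wild-type arrays in both panels, by -1.30 and -0.14 on average, and the panels have different scales.

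The genes with the smallest differences were also the brightest. *MPC2*, *PDA1*, *PDB1* and *LAT1* were the 4 genes with a mean log2 signal of 13 or more. Of the 671 probe sets that bright, 2.98% were called and the median size of the difference was 0.03, whereas of the 2642 with a mean under 11, *MPC3* among them, 19.2% were called with a median size of 0.13. *MPC1*, *LPD1* and *PDX1* fell between, where 12.4% of 2185 were called with a median size of 0.08. The part that signal level has in the contrast between the genes was not tested.

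Pyruvate dehydrogenase is switched off by kinases that phosphorylate Pda1 and on again by phosphatases. Of 4 such genes, 1 was lower and none higher by limma, beside 8.08% and 6.44% of all probe sets, and 4 had an unadjusted p under 0.05, beside 35%. *PKP1* (YIL042C), a kinase, had 10.34, 10.17 and 10.15 on K37A arrays 1, 2 and 3 and 10.47, 10.49 and 10.43 on wild-type arrays 1, 2 and 3, and fell to a ratio of 0.844 (adjusted p = 0.0396, limma). The second kinase gene, *PKP2*, had a ratio of 0.737 (adjusted p = 0.0553, limma). The phosphatase genes *PTC5* and *PTC6* had ratios of 0.919 and 0.904 and did not pass. The K37A arrays lay below the wild-type arrays for all 4, an order found for 21.5% of all probe sets.

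Of 6 genes of the other complexes that use Lpd1, *KGD1*, the decarboxylating subunit of 2-oxoglutarate dehydrogenase, fell to a ratio of 0.897 (adjusted p = 0.0426, limma), and 5 did not pass. Those with the largest differences otherwise were *KGD4*, a further subunit of that enzyme (ratio 0.871), and *GCV2*, the glycine decarboxylase (ratio 1.10). None of 3 genes for making or attaching lipoic acid passed by limma, with *LIP2* at a ratio of 0.858 and *LIP5* at 1.02. Of the 3, 1 had an unadjusted p under 0.05, beside 35% of all probe sets. For both groups of genes the background was 8.08% of all probe sets lower and 6.44% higher.

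Around pyruvate itself, isozymes differed in their values. *PYK2*, the minor pyruvate kinase, known to be repressed by glucose, had 11.41, 11.14 and 10.85 on K37A arrays 1, 2 and 3 and 11.96, 11.80 and 11.77 on wild-type arrays 1, 2 and 3, and fell to a ratio of 0.612 (adjusted p = 0.0286, limma). The major pyruvate kinase gene *CDC19* had a ratio of 1.01 with a 95% confidence interval of 0.962 to 1.07. Its mean log2 signal was 14.57 in H2B K37A cells and 14.55 in wild-type cells. *PYK2* was the 1 gene of 8 for the supply of pyruvate that passed, ahead of the lactate permease *JEN1* (ratio 0.763) and the malic enzyme *MAE1* (ratio 1.22), which did not. *PDC5*, a minor pyruvate decarboxylase, rose to a ratio of 1.31 (adjusted p = 0.0170, limma), with 12.09, 12.27 and 12.17 on K37A arrays 1, 2 and 3 and 11.83, 11.77 and 11.78 on wild-type arrays 1, 2 and 3. It was the 1 of 7 genes of other pyruvate use that passed, and *PDC6* and the pyruvate carboxylase *PYC1* had ratios of 1.37 and 1.17 (adjusted p = 0.0681 and 0.0722, limma). *PDC1*, the main decarboxylase, had a ratio of 0.995 with an interval of 0.942 to 1.05. Its mean log2 signal was 14.54 in H2B K37A cells and 14.55 in wild-type cells. *CDC19* and *PDC1* were thus among the probe sets at 13 or more, where the median size of the difference was 0.03. *PYK2* and *PDC5* were among those at 11 to 13, where it was 0.08. Of all probe sets 8.08% were lower and 6.44% higher. The difference between isozymes was not tested, nor was the part that signal level has in it.

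The cytosolic and mitochondrial route from acetaldehyde to acetyl-CoA that bypasses pyruvate dehydrogenase held 2 of the 6 lower genes. *ALD4*, the main mitochondrial aldehyde dehydrogenase, fell to a ratio of 0.585 (adjusted p = 0.0402, limma) and *ALD6*, the cytosolic one, to 0.747 (adjusted p = 0.0355, limma), and the other 3 genes of this route did not pass. Of 3 citrate synthases, which use the acetyl-CoA, *CIT1* fell to a ratio of 0.808 (adjusted p = 0.0347, limma), and *CIT2* and *CIT3* had ratios of 0.836 and 0.860 without passing. Of 7 porins and carriers of cofactors, *FLX1*, a carrier for FAD, rose to a ratio of 1.13 (adjusted p = 0.0378, limma), and *YIA6*, a NAD carrier, and *LEU5*, a coenzyme A carrier, had ratios of 0.847 and 0.902 and did not pass. Over these 43 genes, 6 were lower and 2 higher, 14.0% and 4.65%, beside 8.08% and 6.44% of all probe sets, and the median difference was -0.06. Without K37A replicates 1, 2 and 3 the 6 lower genes became 11, 0 and 2, beside 615, 4 and 262 of all probe sets. Without wild-type replicates 1, 2 and 3 the lower genes became 0 each time, beside 26, 2 and 95 of all probe sets. The 2 higher genes became 3, 0 and 1 without K37A replicates 1, 2 and 3, beside 525, 3 and 239 of all probe sets. Without wild-type replicates 1, 2 and 3 the higher genes became 0 each time, beside 29, 0 and 40 of all probe sets.

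**Figure D4:**
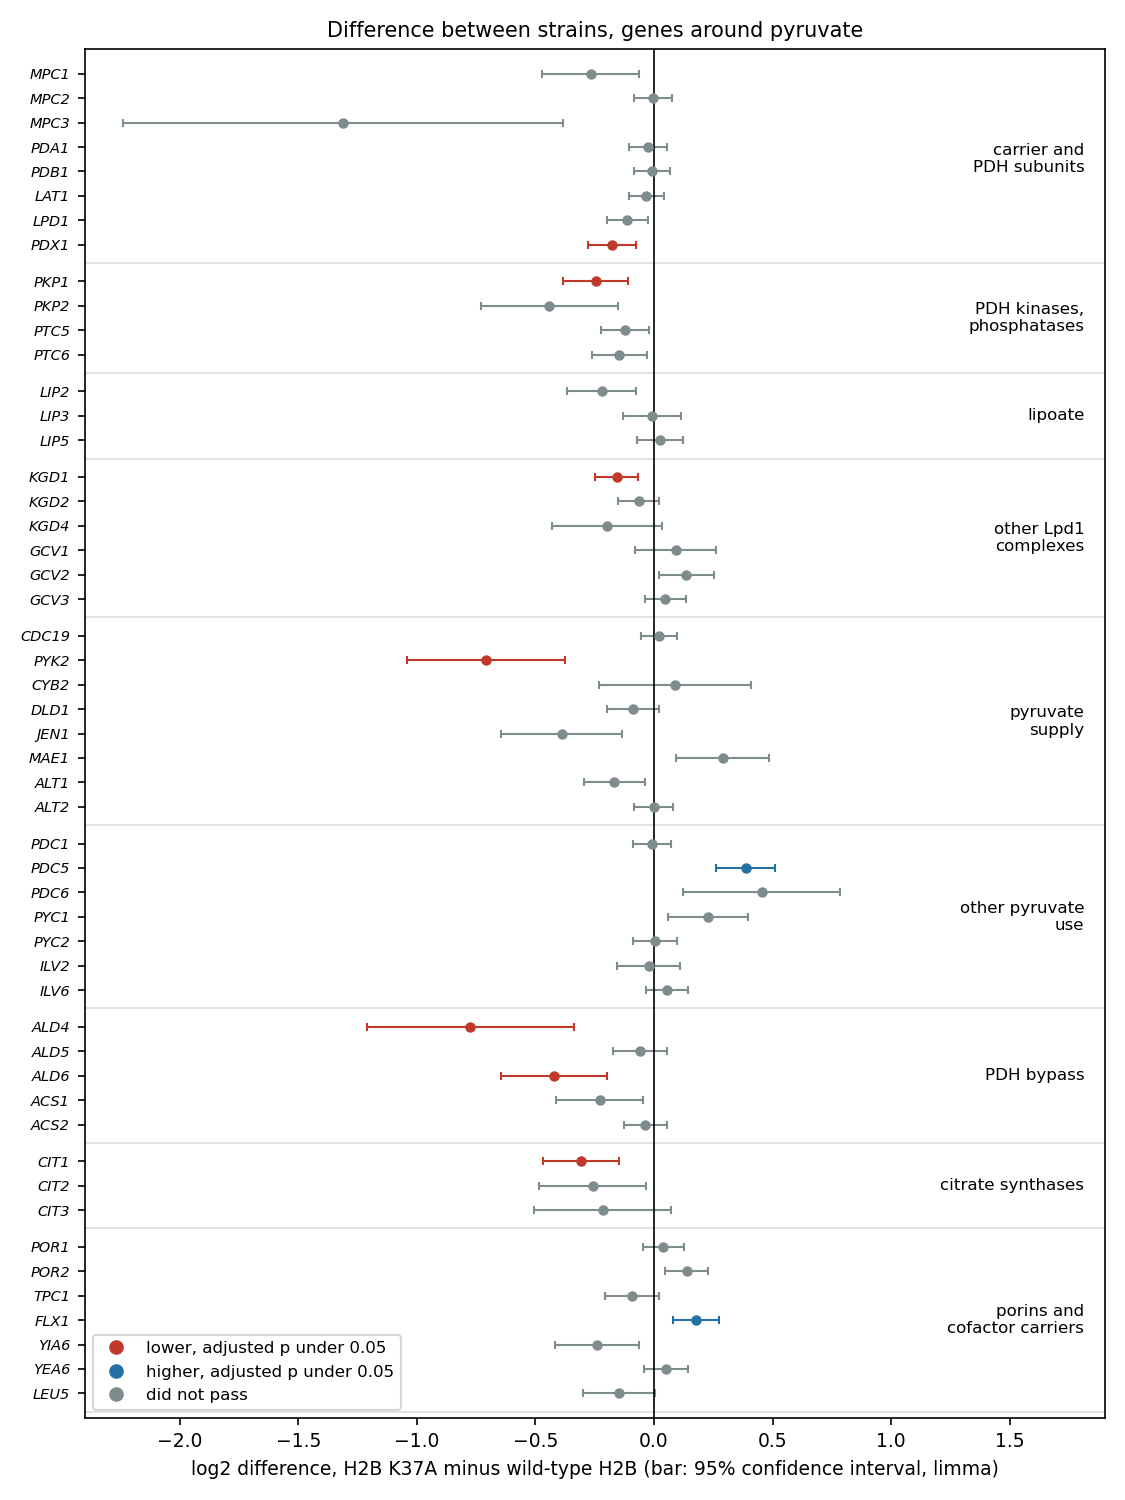
Log2 difference, K37A minus wild type (horizontal axis), of the 8 genes and of 43 genes around pyruvate, grouped by role. Points are limma estimates and bars 95% confidence intervals. Red marks genes that were lower and blue genes that were higher at an adjusted p under 0.05. *MPC3* has the most negative value and the widest interval, and the bars of *MPC2*, *PDA1*, *PDB1* and *LAT1* are short and cross 0.

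Lists of genes that respond to glucose, stress and growth were read from the same cultures, with 8.08% of all probe sets lower and 6.44% higher as the background. Of 12 glucose-repressed genes, 5 were lower and none higher, while *ACS1* and *JEN1*, which are also in this list, did not pass. The mean log2 signal of the 12 genes per array was 9.88 to 10.09 in H2B K37A cells and 10.16 to 10.46 in wild-type cells. Of 10 stress genes under Msn2 and Msn4, 4 were lower and none higher, with means per array of 12.00 to 12.29 in H2B K37A cells and 12.42 to 12.62 in wild-type cells. Without K37A replicate 2 or wild-type replicate 1 or 2, none of either list was lower, beside 4, 26 and 2 of all probe sets. Without wild-type replicate 3 the counts were 2 glucose-repressed and 0 stress genes lower, beside 95 of all probe sets. None of 8 genes of ribosome production passed, and 3 had an unadjusted p under 0.05, beside 35% of all probe sets. Without K37A replicate 1, 2 of these genes were higher by limma, beside 525 of all probe sets. Their means per array were 13.50 to 13.61 in H2B K37A cells and 13.43 to 13.47 in wild-type cells. Within the glucose-repressed list, *CAT8*, an activator of genes for non-fermentable carbon that the study had also picked from these arrays, fell, with a difference of -1.24, while *ADH2*, which oxidises ethanol, had a difference of 0.58 (adjusted p = 0.0224 and 0.0505, limma). The lowest signal of any of these genes on any array was 7.32. K37A replicate 3, where *MPC3* was lowest, had the lowest mean of the glucose-repressed and stress lists and the highest of the growth list (13.61). Wild-type replicate 1, where *MPC3* was highest, had the highest mean of the glucose-repressed (10.46) and stress (12.62) lists and the lowest of the growth list (13.43). The order differed elsewhere, as K37A replicates 1 and 2 had stress means of 12.28 and 12.29. The part of culture state in the differences of *MPC3*, *MPC1* and *PDX1* was not tested. *ACT1*, the actin gene, had a difference of -0.01, and relative to it *MPC3* differed by -1.30. Its mean log2 signal was 14.41 in H2B K37A cells and 14.42 in wild-type cells. Probe sets at 13 or more had a median size of the difference of 0.03, so *ACT1* is a limited check on the arrays.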

How the data were processed

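The authors computed the deposited log2 signals by RMA, run in Affymetrix Expression Console per the submitters' processing notes (versions not given in the sources used here). RMA corrects background, equalises the distribution of probe signals between arrays and summarises each probe set, so a shift of most transcripts is not seen. The labels give acid-extracted histones as source but total RNA as molecule, and the values were taken as RNA. Of 10928 probe sets, the 5498 whose annotated gene matched the gene table of assembly R64 were tested, with no filter on signal. limma 3.58.1 in R 4.3.3 (lmFit, eBayes) fitted strain as the only term, with Benjamini-Hochberg adjustment over the 5498, a two-sided threshold of 0.05 and 95% confidence intervals. In 10 simulated sets of the 5498 probe sets for this comparison, with 200 genes changed, it called 97.4% of genes changed 1.5-fold and 99.5% of those changed 2-fold, and 5.99% of its calls were unchanged genes. The simulated noise was independent for each gene and array, so deviations that many genes share on an array were not modelled. These rates need not hold for the real arrays or for smaller changes. With 3 arrays a strain, array number limits precision. The 8 genes, the lists and the tests were chosen with earlier results of these data known. Genes named are the 8, in each pathway list those past the adjusted p or otherwise the 2 with the largest difference, the 5 closest profiles to *MPC3* and to *LPD1*, and *ACT1*. Other genes were named after their values were seen. Gene coordinates and sequences were not used here. Alternatives were to test every probe set of the array or only those brighter than the 95th percentile of probe sets of other names (6.30), median centring, quantile normalization again, a replicate block, an intensity trend, array weights, probe sets averaged by gene, each array left out and *ACT1* as reference.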

Additional observations from a re-analysis of the deposited data

How the results depend on the processing

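The number of the 8 genes that were lower, 1 as reported, was 0 when all probe sets of the array were tested, 3 with the replicate number as a block (*MPC1*, *MPC3*, *PDX1*), 3 with an intensity trend (*MPC3*, *LPD1*, *PDX1*), 4 with array weights (*MPC1*, *MPC3*, *LPD1*, *PDX1*) and 0 to 3 with each array left out, while none was higher under any setting. Of the 43 genes around pyruvate, 6 were lower as reported, 1 with all probe sets, 11 with the block, 14 with array weights and 0 to 11 with each array left out, and 2 were higher as reported, 1 with all probe sets, 4 with the trend, 6 with array weights and 0 to 3 with each array left out. Testing all probe sets adds rows to the adjustment and to the estimate of variance, and leaving an array out takes a sample away. The cause of the shifts in these counts was not tested. *MPC3* kept its direction throughout and passed with the block (adjusted p = 0.0220), the trend (0.0373), array weights (-1.06, 0.0218) and without K37A replicate 1 in limma, and its adjusted p ranged up to 0.110 over the settings that kept all arrays and to 0.175 over those that left an array out. *PDX1* kept its direction, at -0.20 to -0.15, and passed in 7 of 8 settings that kept all arrays and in 1 of 6 that left an array out. The difference of *MPC2* turned to 0.011 with median centring, to 0.0026 without K37A replicate 2, to 0.00084 without K37A replicate 3 and to 0.00097 without wild-type replicate 3, a range of -0.019 to 0.0026 with each array left out, and that of *PDB1* to 0.0070 with median centring. None of these passed. *MPC3* minus *MPC2* was -1.64 to -0.89 and *PDX1* minus *LAT1* -0.16 to -0.11 with each array left out, and *MPC3* minus *MPC2* with the block was -1.30 (exact sign-flip test, p = 0.25, the smallest 3 pairs allow). Deviations of same-numbered arrays correlated by 0.40, -0.29 and 0.23 and 3 of 6 arrays matched their own number best. The labels give only the shared number, and what else same-numbered samples share is not known. Over all probe sets the block called 571 lower and 376 higher, against 444 and 354 without it, array weights 854 and 816, a test of all probe sets of the array 151 and 98, and each array left out 2 to 615 and 0 to 525. Leaving each array out of the glucose, stress and growth lists was chosen after seeing the data, and gave 0 to 6 glucose-repressed and 0 to 5 stress genes lower and 0 to 2 growth genes higher.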
